A study of Mus musculus with 6 samples.

Results

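The glutathione transferase, aldehyde dehydrogenase and related families of xenobiotic and aldehyde metabolism were followed in the mouse myoblast line C2C12, whose cells can fuse into muscle fibres, with the myostatin gene knocked out (MSTN-KO) or intact (WT). Members were taken by gene symbol alone, as the Gst classes a, k, m, o, p, t and z with Gstcd, the Mgst, Aldh and Adh genes, the Ugt1 and Ugt2 genes, and the symbols that begin with Cyp1 or Cyp2. This rule found 61 genes among the 14548 of the deposited tables, namely 16 Gst, 3 Mgst, 18 Aldh, 3 Adh, 1 Ugt and 20 Cyp genes. A further 100 annotated genes with such symbols were not analysed here. The prefix Cyp1 or Cyp2 also takes in steroid, retinoid and vitamin D enzymes such as Cyp11a1, Cyp26b1 and Cyp27b1, which are not drug-metabolizing P450s.

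RNA-seq was available for 3 WT and 3 MSTN-KO libraries, with 1 value per gene and library in FPKM (fragments per gene, scaled by transcript length and by the fragments in each library). The MSTN-KO cells were the line C11, in which exon 3 of the gene had been cut with CRISPR/Cas9, so the genotype effect rests on 1 line. The labels also give C11 as the strain for WT, and the grouping follows the genotype they state. Nothing states that the libraries of a group came from separate cultures, so the p-values measure only the spread between these libraries. Mstn itself stood between 0 and 0.0586 FPKM across the 6 libraries, which leaves its RNA without use as a check of the labels (two-sided exact permutation test, p = 0.3). The FPKM values summed to 723705 to 764524 in WT and 856314 to 999579 in MSTN-KO, and 13151 to 13478 genes per library were above 0. The number of fragments per library is unknown.

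Myod1 and Des, markers of myoblasts, were expressed in all 6 libraries, but muscle genes differed between the groups. In bulk RNA, fewer cells of a type and less RNA per cell cannot be told apart. All 12 tested genes of the muscle differentiation list were lower in MSTN-KO, and their summed level ranged from 267 to 963 FPKM in WT and 40.5 to 68.3 FPKM in MSTN-KO. Of the 8 tested myoblast markers, 5 were lower and 1 was higher, with sums of 1299 to 1786 FPKM in WT and 753 to 933 FPKM in MSTN-KO. Over all tested genes of the series, 8.78% were called higher and 8.96% lower in MSTN-KO, by the test described below. Among markers of other cells, adipocyte genes summed to 7.64 to 8.53 FPKM in WT and 21.4 to 33.5 FPKM in MSTN-KO, where Lpl and Fabp4 were called higher. Fabp4 was low, at 0.147, 0.252 and 0.324 FPKM in WT and 1.03, 0.919 and 1.76 FPKM in MSTN-KO. It reached the 1 FPKM needed for the test only in MSTN-KO libraries. Pparg was not called, and Plin1, which coats the fat droplets of adipocytes, was listed at 0 in WT and had a mean of 0.0213 FPKM in MSTN-KO. Fibroblast genes summed to 183 to 256 FPKM in WT and 321 to 386 FPKM in MSTN-KO and had 1 call in each direction among 3 tested, macrophage and epithelial genes had none among 2 and 1 tested, and all 4 endothelial markers with values were under 1 FPKM. The hepatocyte markers were not analysed here. WT replicate 3 had the lowest differentiation level of its group. Of the 15 family members higher in MSTN-KO, described below, it was the highest WT library for 6 and the lowest for 5. The part of the differentiation state in the family values was not tested.

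Detoxification enzymes of this kind act in stages. Cytochromes P450 and dehydrogenases oxidize a lipid, alcohol or foreign compound, and the aldehyde dehydrogenases turn reactive aldehydes into carboxylic acids. Glutathione transferases then join electrophiles to the thiol of glutathione, and UDP-glucuronosyltransferases join sugar acid groups to phenols and related molecules, which makes the products soluble and ready for export. Many of these genes are known targets of the transcription factors NRF2, which answers oxidative and electrophilic stress, and AHR, which binds aromatic compounds. Liver is the tissue in which they are best known, while muscle cells express a smaller set.

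The largest rises in MSTN-KO were those of Mgst1, Gsta2, Aldh3a1, Mgst2, Ugt1a9, Gsta4 and Gstm1, each with a log2 fold change above 1, and Aldh5a1 was the member that fell. Of the 61 members, 36 reached 1 FPKM in at least 1 library and were tested by limma on log2(FPKM + 1) among 10837 such genes of the series. At a Benjamini-Hochberg adjusted p under 0.05, 15 members were higher in MSTN-KO, 1 was lower and 20 were not called. Among those called higher, Mgst1 and Cyp26b1 reached 1 FPKM only in MSTN-KO libraries, so they entered the test through the group where they are high. Of all tested genes, 952 (8.78%) were called higher and 971 (8.96%) lower. The median log2 fold change was 0.41 over the 36 members and -0.00078 over all tested genes, and 28 members lay above 0. Every MSTN-KO library was above every WT library for 20 members, against 19.3% of all tested genes, and the reverse held for 4 members, against 18.1%. These counts leave out the 25 members under 1 FPKM, which are given after the tested ones. Because the MSTN-KO libraries had the larger FPKM sums, scaling each library to a sum of 1000000 moved the median of all genes to -0.26. On that scale 9 members were higher and 5 were lower, while all tested genes gave 350 higher and 2367 lower calls. Without WT replicate 2, 10 members and 419 of all tested genes were called higher.

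**Figure D1:**
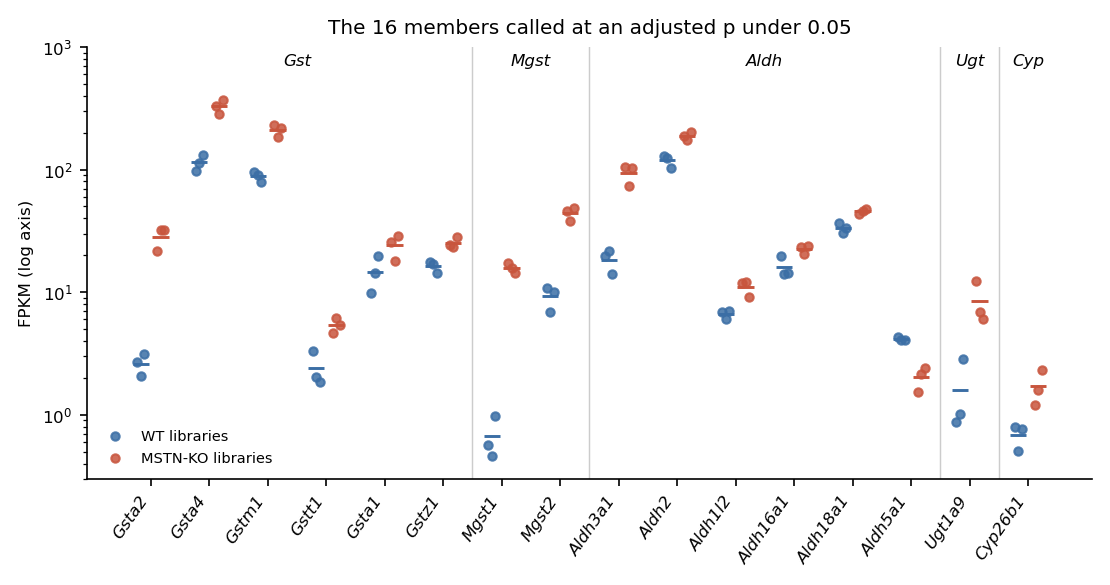
FPKM (log axis) of the 16 called members in each of the 3 WT and 3 MSTN-KO libraries, grouped by family, with a horizontal bar at each group mean. Mgst1 shows the widest gap, from under 1 FPKM in WT to 14.4 to 17.4 FPKM in MSTN-KO, and Aldh5a1 is the member that lies lower in MSTN-KO.

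The Mgst genes encode small enzymes set in the membranes of the endoplasmic reticulum and mitochondria, where they act on lipid peroxides and leukotrienes. Of the 3 genes, 2 were higher in MSTN-KO. Mgst1 (ENSMUSG00000008540, chromosome 6, 138140316 to 138156755, plus strand in GRCm38), which has glutathione peroxidase activity, stood at 0.5703, 0.462 and 0.985 FPKM in WT and 17.4, 15.7 and 14.4 FPKM in MSTN-KO. It was under 1 FPKM in every WT library and far higher in every MSTN-KO library, a 23.5-fold difference in mean FPKM (log2 fold change 3.34 ± 0.17 (SE), adjusted p = 3.76e-08). Mgst2 (ENSMUSG00000074604, chromosome 3, 51660360 to 51682677, plus strand), which can make leukotriene C4, was at 10.8, 6.92 and 10.05 FPKM in WT and 45.5, 37.8 and 48.8 FPKM in MSTN-KO. The groups did not overlap, and the mean rose 4.77-fold (log2 fold change 2.15 ± 0.17 (SE), adjusted p = 1.88e-06). Mgst3 was the most abundant of the family, at 171, 135 and 128 FPKM in WT and 181, 157 and 211 FPKM in MSTN-KO. Its groups overlapped and it was not called (log2 fold change 0.34, 95% confidence interval 0.02 to 0.66, adjusted p = 0.130). Mgst3 made up 93.6% ± 1.38 (SD, n = 3) of the summed Mgst level in WT and 75.3% ± 1.49 in MSTN-KO, Mgst2 6.001% ± 1.18 and 18.1% ± 0.4804, and Mgst1 0.449% ± 0.225 and 6.61% ± 1.18.

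The bases before the start sites of Mgst1 and Mgst2 are shown because these genes had the largest rises of the family and hold different motifs. The stretches are from the RefSeq promoter table (GRCm38.p6), are written 5′ to 3′ on the strand of the gene, and leave out annotated exons, except that the 29 bases of Mgst1 lie inside a longer annotated first exon. Capitals mark a match to the core of the antioxidant response element bound by NRF2 (TGACNNNGC, here on the opposite strand) in Mgst1 and to the AP-1 site TGANTCA in Mgst2.
Mgst1, chr6:138140461-138140489, plus strand: gcggggcttgGCACGGTCAggaggcgggg
Mgst2, chr3:51661029-51661177, plus strand: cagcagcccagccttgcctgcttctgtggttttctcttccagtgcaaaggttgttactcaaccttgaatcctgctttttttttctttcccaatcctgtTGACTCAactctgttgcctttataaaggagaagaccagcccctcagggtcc
The match in Mgst1 lies 56 to 48 bases before the RefSeq start and that in Mgst2 52 to 46 bases before it.

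The alpha class had 3 members, all encoded side by side on chromosome 9 and all higher in MSTN-KO. Gsta4 (ENSMUSG00000032348, chromosome 9, 78182774 to 78209349, plus strand), which clears 4-hydroxynonenal and other products of lipid peroxidation, had the highest mean level of all tested members over the 6 libraries. It was measured at 97.96, 113 and 132 FPKM in WT and 331, 286 and 369.6 FPKM in MSTN-KO, a 2.87-fold higher mean without overlap (log2 fold change 1.52 ± 0.14 (SE), adjusted p = 1.36e-05). Gsta2 (ENSMUSG00000057933, chromosome 9, 78331018 to 78355788, minus strand), a transferase and peroxidase best known from liver, was at 2.67, 2.06 and 3.11 FPKM in WT and 21.5, 31.9 and 31.9 FPKM in MSTN-KO. This was a 10.9-fold difference in the mean (log2 fold change 3.01 ± 0.18 (SE), adjusted p = 2.26e-07), the largest of the Gst genes on the log2 scale. Gsta1 (ENSMUSG00000074183, chromosome 9, 78230656 to 78242684, plus strand), its close paralog, was at 9.86, 14.2 and 19.7 FPKM in WT and 25.8, 18.02 and 28.95 FPKM in MSTN-KO. WT replicate 3 lay above MSTN-KO replicate 2, so the groups overlapped, and the call was near the threshold (log2 fold change 0.72 ± 0.22 (SE), adjusted p = 0.0401). It was lost in fits without WT replicate 1 (0.161), WT replicate 2 (0.0835), MSTN-KO replicate 1 (0.0978) or MSTN-KO replicate 3 (0.180), with the adjusted p in parentheses. It was also lost with no filter (0.125), no trend (0.0547), quantile normalization (0.0694), percentile 75 scaling (0.0775) and scaling to a sum of 1000000 (0.162). As a share of the summed alpha class, Gsta2 went from 2.01% ± 0.412 (SD, n = 3) in WT to 7.53% ± 1.92 in MSTN-KO and Gsta1 from 10.9% ± 1.89 to 6.304% ± 0.812, while Gsta4 held 87.1% ± 1.69 and 86.2% ± 1.22.

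Reads of Gsta1 and Gsta2 are hard to separate. Of all 50-base windows in the annotated transcripts of Gsta1, 90.5% occurred unchanged in transcripts of another gene, most of them in Gm3776. For Gsta2 the share was 49.8%, mostly with Gsta1, and how the deposited values split such reads is not given in the sources used here. The bases before their start sites are also alike, and are shown because the fold changes of the 2 genes were far apart. Over the 250 bases before each RefSeq start, 71.4% of 266 aligned columns were identical. The stretches below end where an annotated exon begins and hold none of the 3 motifs searched.
Gsta1, chr9:78230519-78230655, plus strand: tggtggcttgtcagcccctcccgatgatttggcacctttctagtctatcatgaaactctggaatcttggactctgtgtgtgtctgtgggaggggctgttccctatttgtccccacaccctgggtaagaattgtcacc
Gsta2, chr9:78347169-78347295, minus strand: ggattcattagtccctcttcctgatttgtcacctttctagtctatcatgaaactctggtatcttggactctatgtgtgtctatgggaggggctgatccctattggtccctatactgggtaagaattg
Between 7 and 3 bases before its start, in the part that is not printed, Gsta2 has a match to GCGTG, the core of the xenobiotic response element bound by AHR. Gsta1 has no match to any of the motifs in its 250 bases.

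The mu class (Gstm genes, on chromosome 3) conjugates epoxides and quinones. Gstm1 (ENSMUSG00000058135, chromosome 3, 108012255 to 108017973, minus strand) was the only member called, at 94.97, 91.2 and 79.1 FPKM in WT and 229.5, 183 and 217 FPKM in MSTN-KO. Its mean was 2.37-fold higher with no overlap between the groups (log2 fold change 1.23 ± 0.13 (SE), adjusted p = 3.94e-05). Of the other tested mu genes, Gstm2 was at 56.1, 50.6 and 36.4 FPKM in WT and 60.1, 57.6 and 70.7 FPKM in MSTN-KO (log2 fold change 0.41, adjusted p = 0.0973). Gstm5 had nearly equal means, 35.3 ± 1.91 FPKM in WT and 36.7 ± 3.11 FPKM in MSTN-KO (mean ± SD, n = 3), with a 95% confidence interval of its log2 fold change from -0.22 to 0.32. Gstm7 was low and had the largest SD among WT libraries of all tested members on the log2(FPKM + 1) scale, at 3.17, 1.85 and 0.678 FPKM, with 3.62, 2.54 and 3.34 FPKM in MSTN-KO (adjusted p = 0.131). Gstm6 was under 1 FPKM in every library. Gstm1 made up 50.9% ± 0.325 (SD, n = 3) of the class in WT and 67.03% ± 1.97 in MSTN-KO. The 150 bases before the start of Gstm1 are shown because they hold a GCGTG match, in capitals, 76 to 72 bases before the RefSeq start.
Gstm1, chr3:108017974-108018123, minus strand: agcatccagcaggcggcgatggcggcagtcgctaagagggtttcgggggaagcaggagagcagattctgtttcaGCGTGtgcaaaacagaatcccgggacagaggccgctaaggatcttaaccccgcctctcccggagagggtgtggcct

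Of the remaining classes, Gstt1 and Gstz1 were higher in MSTN-KO. Gstt1 (ENSMUSG00000001663, chromosome 10, 75783813 to 75798584, minus strand), a theta-class enzyme that acts on small halogenated molecules, was at 3.32, 2.05 and 1.84 FPKM in WT and 4.65, 6.18 and 5.41 FPKM in MSTN-KO, with no overlap (log2 fold change 0.93 ± 0.19 (SE), adjusted p = 0.0045). Its neighbour Gstt2 stayed near 1 FPKM, at 0.9100 ± 0.233 FPKM in WT and 1.125 ± 0.145 FPKM in MSTN-KO (mean ± SD, n = 3), and was not called (adjusted p = 0.555). Gstz1 (ENSMUSG00000021033, chromosome 12, 87147165 to 87164723, plus strand), the maleylacetoacetate isomerase of tyrosine breakdown, was at 17.7, 17.01 and 14.4 FPKM in WT and 24.1, 23.2 and 27.98 FPKM in MSTN-KO, again without overlap (log2 fold change 0.59 ± 0.14 (SE), adjusted p = 0.0110). Scaling to a sum of 1000000 took its adjusted p to 0.0865. Gsto1, the omega-class enzyme that reduces dehydroascorbate and had rank 2 in mean level among the tested members, was at 147, 137 and 170.4 FPKM in WT and 186, 172 and 239 FPKM in MSTN-KO. Each MSTN-KO library was above each WT library, but it was not called (log2 fold change 0.38, 95% confidence interval 0.07 to 0.70, adjusted p = 0.0877). Gsto2 was low, at 2.79 ± 1.1 FPKM in WT and 1.83 ± 0.569 FPKM in MSTN-KO (mean ± SD, n = 3), and not called. Gstcd had every MSTN-KO value below every WT value, at 9.61 ± 0.612 FPKM in WT and 7.18 ± 1.42 FPKM in MSTN-KO (mean ± SD, n = 3), and did not pass the test either (adjusted p = 0.109). Gstk1, a kappa-class enzyme of mitochondria and peroxisomes, was under 1 FPKM throughout.

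**Figure D2:**
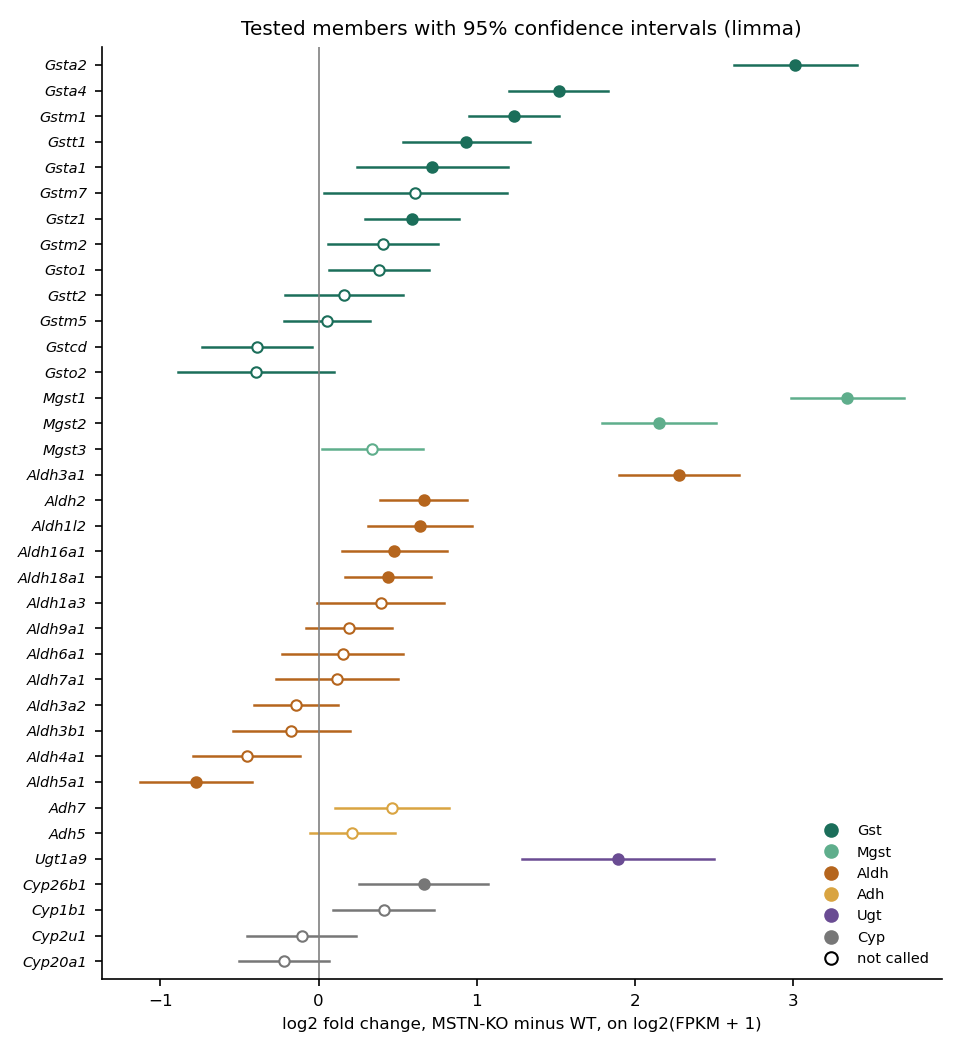
Log2 fold changes (MSTN-KO minus WT, on the log2(FPKM + 1) scale) of the 36 tested members with 95% confidence intervals, ordered within each family, with colours for the families, filled points for called members and open points for the others. Of the members, 28 lie above 0 and 8 below, with Mgst1 at 3.34 and Aldh5a1 at -0.78 as the ends of the range.

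The aldehyde dehydrogenases had 13 tested members, of which 5 were higher and 1 was lower in MSTN-KO. Aldh3a1 (ENSMUSG00000019102, chromosome 11, 61207537 to 61218421, plus strand), which oxidizes aromatic and medium-chain aldehydes and is abundant in the cornea, was at 19.7, 21.5 and 14.2 FPKM in WT and 105, 73.1 and 102 FPKM in MSTN-KO. It rose 5.05-fold in the mean with no overlap (log2 fold change 2.28 ± 0.18 (SE), adjusted p = 1.81e-06) and made up 6.59% ± 1.07 (SD, n = 3) of the summed Aldh level in WT and 21.02% ± 2.78 in MSTN-KO. Aldh2 (ENSMUSG00000029455, chromosome 5, 121566027 to 121593824, minus strand), the mitochondrial enzyme that clears acetaldehyde, was the most abundant Aldh gene, at 129, 124 and 103.2 FPKM in WT and 188, 175 and 201 FPKM in MSTN-KO. Its mean was 1.58-fold higher without overlap (log2 fold change 0.66 ± 0.13 (SE), adjusted p = 0.0038), and its share of the family was 42.5% ± 1.802 in WT and 42.6% ± 0.639 in MSTN-KO.

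Smaller rises were seen in 3 further Aldh genes. Aldh1l2 (ENSMUSG00000020256, chromosome 10, 83487450 to 83534140, minus strand), a mitochondrial enzyme of folate metabolism, was at 6.92, 6.06 and 7.03 FPKM in WT and 11.9, 12.1 and 9.13 FPKM in MSTN-KO (log2 fold change 0.64 ± 0.15 (SE), adjusted p = 0.0119). Without WT replicate 2 (0.0699) or MSTN-KO replicate 1 (0.0557) its call was lost, with the adjusted p in parentheses. Aldh18a1 (ENSMUSG00000025007, chromosome 19, 40550257 to 40588463, minus strand), which makes the proline precursor pyrroline-5-carboxylate from glutamate, was at 36.9, 30.4 and 33.6 FPKM in WT and 43.1, 46.3 and 48.03 FPKM in MSTN-KO (log2 fold change 0.44 ± 0.13 (SE), adjusted p = 0.0296). Leaving out WT replicate 2 (0.169), WT replicate 3 (0.0646), MSTN-KO replicate 1 (0.0702), MSTN-KO replicate 2 (0.0514) or MSTN-KO replicate 3 (0.0753) ended that call. Aldh16a1 (ENSMUSG00000007833, chromosome 7, 45140684 to 45154584, minus strand), a large member of the family, was at 19.9, 14.1 and 14.2 FPKM in WT and 23.3, 20.5 and 23.8 FPKM in MSTN-KO (log2 fold change 0.48 ± 0.15 (SE), adjusted p = 0.0475). That call ended without WT replicate 2 (0.199), WT replicate 3 (0.139), MSTN-KO replicate 1 (0.136) or MSTN-KO replicate 3 (0.131), and also with no filter (0.0902), no trend (0.0609) and percentile 75 scaling (0.0598). In all 3 genes each MSTN-KO library was above each WT library, and none of the 3 was called after scaling to a sum of 1000000.

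Aldh5a1 (ENSMUSG00000035936, chromosome 13, 24907579 to 24937661, minus strand), the succinic semialdehyde dehydrogenase of GABA breakdown, was the member called lower. It was at 4.34, 4.05 and 4.08 FPKM in WT and 1.54, 2.13 and 2.42 FPKM in MSTN-KO, with all MSTN-KO values under the lowest WT value (log2 fold change -0.78 ± 0.16 (SE), adjusted p = 0.0060). It lies on chromosome 13, whose 410 tested genes had log2 fold changes with a median of -0.34, and the part of the chromosome in its change was not tested. Other chromosomes with tested members had medians from -0.25 (chromosome 1, with 4 tested members, among them Cyp20a1) to 0.15 (chromosome 17). Of the Aldh genes not called, Aldh4a1, which breaks down proline, was at 9.23, 6.42 and 7.12 FPKM in WT and 5.32, 5.15 and 5.15 FPKM in MSTN-KO, without overlap but with an adjusted p of 0.0621. Aldh3a2, the fatty aldehyde dehydrogenase, was at 22.8 ± 0.756 FPKM in WT and 20.5 ± 0.879 FPKM in MSTN-KO (mean ± SD, n = 3), also without overlap (adjusted p = 0.442). Aldh1a3, which makes retinoic acid from retinal, was at 1.29, 1.22 and 1.42 FPKM in WT and 1.35, 2.38 and 2.49 FPKM in MSTN-KO, with MSTN-KO replicate 1 inside the WT range (adjusted p = 0.162). The remaining 4 Aldh genes were Aldh3b1, Aldh6a1, Aldh7a1 and Aldh9a1, with log2 fold changes from -0.17 to 0.19.

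The alcohol dehydrogenases had 2 tested genes and no call. Adh5, the glutathione-dependent formaldehyde dehydrogenase that also reduces S-nitrosoglutathione, was at 65.2, 73.8 and 74.8 FPKM in WT and 78.4, 78.8 and 91.03 FPKM in MSTN-KO. The groups did not overlap, the log2 fold change was 0.21 with a 95% confidence interval of -0.06 to 0.48, and the adjusted p was 0.252. After scaling to a sum of 1000000 its sign turned, to -0.071. Adh7, known for the oxidation of retinol and ethanol, was at 2.37, 2.27 and 2.64 FPKM in WT and 4.497, 3.76 and 3.03 FPKM in MSTN-KO (log2 fold change 0.46, adjusted p = 0.0704). Adh1 was listed at 0 in all WT libraries and reached 0.7697, 0.883 and 0.298 FPKM in MSTN-KO, under the level needed for the test.

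Ugt1a9 (ENSMUSG00000090175, chromosome 1, 88070800 to 88218997, plus strand), which glucuronidates phenols, was the only UDP-glucuronosyltransferase with values. It was at 0.876, 1.02 and 2.85 FPKM in WT and 12.3, 6.92 and 6.02 FPKM in MSTN-KO, with WT replicate 3 the highest of its group and MSTN-KO replicate 1 set apart from the other MSTN-KO libraries. The groups did not overlap (log2 fold change 1.89 ± 0.28 (SE), adjusted p = 6.27e-04), and the mean was 5.33-fold higher. The Ugt1a genes share their last exons, and 62.03% of the 50-base windows of Ugt1a9 occurred in another gene, mostly Ugt1a10. The value may therefore hold reads of other Ugt1a genes, which were not analysed here.

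Few of the cytochromes P450 taken by the rule reached 1 FPKM in any library. Of the 20 members, 16 stayed under 1 FPKM in every library, among them Cyp1a1, the classic AHR target, at no more than 0.0674 FPKM. Of the 4 tested genes, Cyp26b1 (ENSMUSG00000063415, chromosome 6, 84571414 to 84593908, minus strand), which breaks down retinoic acid, was at 0.796, 0.5096 and 0.761 FPKM in WT and 1.21, 1.603 and 2.31 FPKM in MSTN-KO and was called higher (log2 fold change 0.66 ± 0.19 (SE), adjusted p = 0.0284). Cyp26b1 passed the filter of 1 FPKM only through the MSTN-KO libraries, where it is high. The call did not hold without WT replicate 1 (0.0608), WT replicate 2 (0.116), WT replicate 3 (0.0502) or MSTN-KO replicate 3 (0.0895), with the adjusted p in parentheses, and scaling to a sum of 1000000 gave 0.0574. Cyp1b1, which oxidizes oestrogens and polycyclic hydrocarbons, was at 9.63, 10.1 and 10.5 FPKM in WT and 12.9, 16.5 and 11.96 FPKM in MSTN-KO, above WT in every library but not called (adjusted p = 0.0737). Cyp20a1, whose substrate is not known, was the most abundant, at 21.1, 22.9 and 24.01 FPKM in WT and 17.7, 18.9 and 21.5 FPKM in MSTN-KO (log2 fold change -0.22, adjusted p = 0.272). Cyp2u1, a fatty acid hydroxylase, was at 1.91 ± 0.0179 FPKM in WT and 1.71 ± 0.267 FPKM in MSTN-KO (mean ± SD, n = 3, adjusted p = 0.681).

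The 25 members under 1 FPKM reached at most 0.991 FPKM, in 1 WT library of Cyp11a1. This gene, which starts steroid synthesis, was at 0.915, 0.991 and 0.581 FPKM in WT and 0.198, 0.176 and 0.243 FPKM in MSTN-KO. Cyp11b1, an adrenal steroid hydroxylase, was at 0.0535, 0.04497 and 0.0157 FPKM in WT and 0.323, 0.3402 and 0.4003 FPKM in MSTN-KO. In a fit of all 14548 genes without the filter, these 2 genes and Adh1 passed the test, Cyp11a1 lower (log2 fold change -0.59 ± 0.092, adjusted p = 0.0095) and Cyp11b1 and Adh1 higher (0.38 ± 0.042, adjusted p = 0.0023, and 0.70 ± 0.13, adjusted p = 0.0167). The remaining 22 included Aldh1a1, Aldh1l1, Cyp2d22 and Gstt4. At such levels a library holds few fragments of a gene, and the depth that would give their number is unknown.

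Sums over a family depend less on how reads were split among the paralogs they include. They do not cover reads shared with genes outside the sums, such as Gm3776 for Gsta1, Ugt1a10 for Ugt1a9 and Gstm2-ps1 for Gstm1. The summed level of the 61 members was 1035 ± 35.7 FPKM in WT and 1753 ± 175 FPKM in MSTN-KO (mean ± SD, n = 3), 1.69 times as high, and its share of the whole library went from 0.138% ± 0.0048 to 0.192% ± 0.0074. The 16 Gst genes summed to 489 ± 17.1 FPKM in WT and 934 ± 109 FPKM in MSTN-KO, a ratio of 1.91. Within them the alpha class had a ratio of 2.899, the theta class 2.03, the mu class 1.799 and the omega class 1.302. The Mgst genes summed to 154 ± 23.9 FPKM in WT and 243 ± 31.6 FPKM in MSTN-KO (ratio 1.57) and the Aldh genes to 279 ± 29.4 FPKM in WT and 442 ± 30.2 FPKM in MSTN-KO (ratio 1.58). For each of these sums every MSTN-KO library was above every WT library, and the test, a two-sided exact permutation test, gave p = 0.1, the smallest value that 3 libraries against 3 allow. The Adh genes had a ratio of 1.18 (exact permutation p = 0.1). The Cyp genes summed to 37.2 ± 1.42 FPKM in WT and 38.5 ± 2.92 FPKM in MSTN-KO, with overlapping groups (ratio 1.04, exact permutation p = 0.6). After scaling to a sum of 1000000 the Adh and Cyp sums were lower in MSTN-KO, and the omega sums of the groups overlapped. As a share of the library, the omega class held 0.0199%, 0.0193% and 0.0225% in WT and 0.0212%, 0.0202% and 0.0241% in MSTN-KO.

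**Figure D3:**
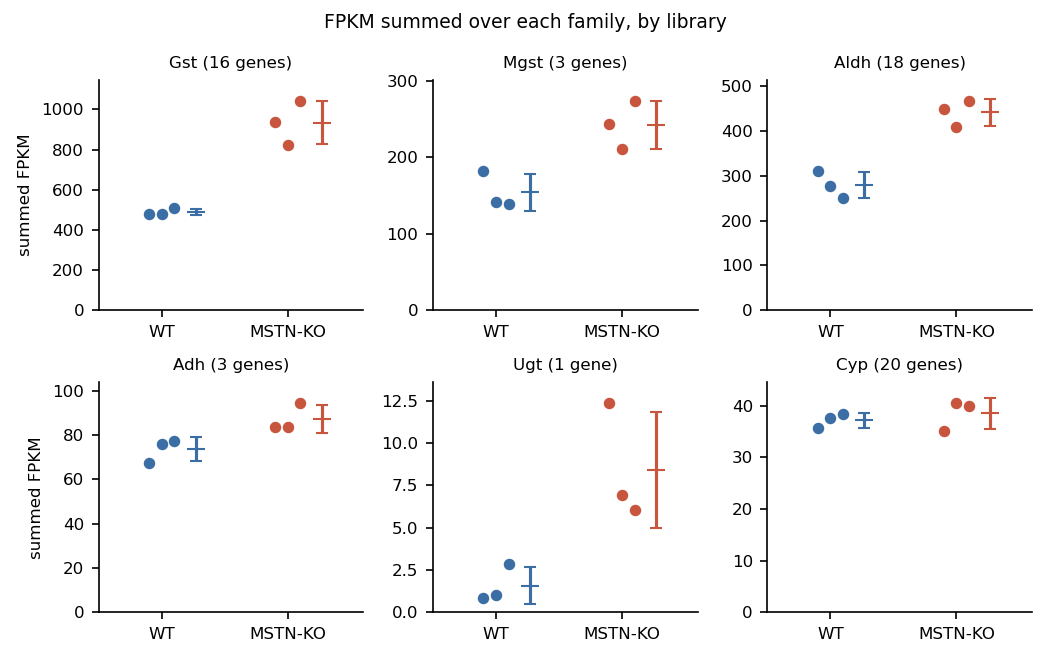
FPKM summed over the members of each family in the 3 WT and 3 MSTN-KO libraries, as points, with the group mean and an error bar of 1 SD beside them, on vertical axes that start at 0. The Gst, Mgst and Aldh sums of the MSTN-KO libraries lie above those of all WT libraries, and the Cyp sums overlap.

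Neighbouring genes were compared because clustered paralogs had unequal fold changes. Pairs of consecutive tested members less than 250 kb apart were described by the log2 ratio of their FPKM + 1 values within each library, which is free of library scaling apart from the added 1. There were 10 such pairs. Aldh3a1 and Aldh3a2 lie 4.995 kb apart, and the log2 ratio of the former to the latter was -0.31 ± 0.31 in WT and 2.11 ± 0.32 in MSTN-KO (mean ± SD, n = 3). Aldh3a1 thus stood below its neighbour in each WT library and above it in each MSTN-KO library. The log2 ratio of Gsta1 to Gsta2 was 2.07 ± 0.44 in WT, where Gsta1 exceeded Gsta2 in each library. In MSTN-KO this log2 ratio was -0.22 ± 0.53, with 0.25, -0.79 and -0.13 in replicates 1, 2 and 3. For Gstm2 to Gstm1 it was -0.89 ± 0.18 in WT and -1.72 ± 0.17 in MSTN-KO, for Gsta4 to Gsta1 2.93 ± 0.25 in WT and 3.72 ± 0.16 in MSTN-KO, and for Gstt1 to Gstt2 0.82 ± 0.25 in WT and 1.59 ± 0.25 in MSTN-KO. Each of these 5 ratios was without overlap between the groups, with an exact permutation p = 0.1 (0.2 after adjustment over the 10 pairs), so none can pass a threshold of 0.05 in this design. Gsto1 to Gsto2 gave 5.37 ± 0.58 in WT and 6.15 ± 0.15 in MSTN-KO (exact permutation p = 0.2). The pair Aldh9a1 and Mgst3, of different families but 3.433 kb apart, gave -2.85 ± 0.16 in WT and -2.998 ± 0.12 in MSTN-KO (exact permutation p = 0.3). The last 3 pairs, Gstm5 with Gstm7, Gstm7 with Gstm2 and Adh7 with Adh5, had p = 0.4 by the same exact test.

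**Figure D4:**
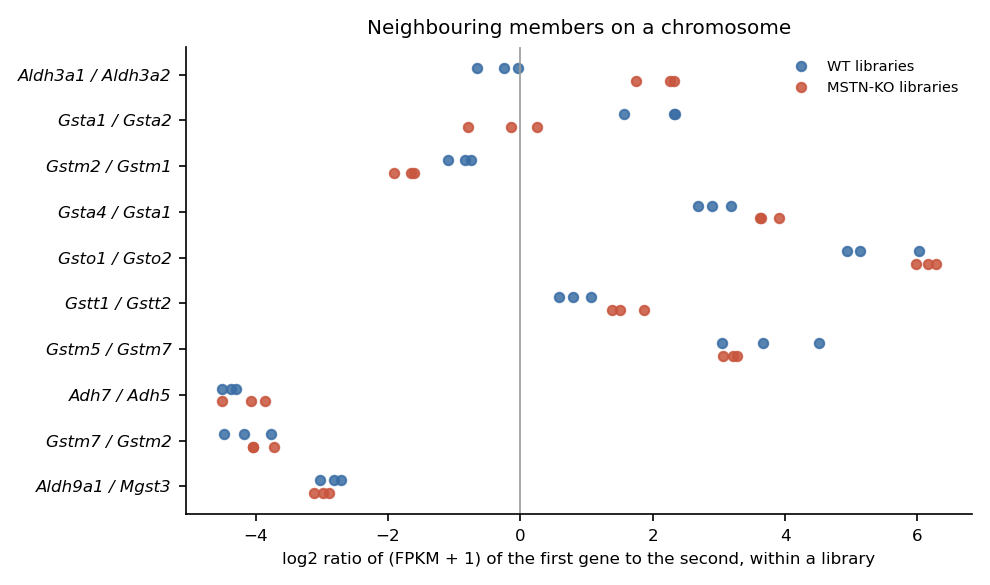
Log2 ratio of FPKM + 1 between the members of each of the 10 neighbouring pairs in the 3 WT and 3 MSTN-KO libraries, 1 point per library, with a line at 0 where the 2 genes are equal. The ratio of Aldh3a1 to Aldh3a2 changes side, from -0.31 in WT to 2.11 in MSTN-KO.

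Long stretches shared with other genes were found in a minority of the members. Of the 36 tested members, 20 had no 50-base window in common with another annotated gene and 29 had under 5% in common. Among the 16 called members 12 were under 5%, including Mgst1 and Aldh3a1 at 0 and Mgst2 at 0.237%. Besides Gsta1, Ugt1a9 and Gsta2, the members with more were Aldh4a1 (30.03%), Gstm1 (18.9%, mostly with the pseudogene Gstm2-ps1), Aldh3b1 (8.97%) and Gstm2 (5.65%).

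**Figure D5:**
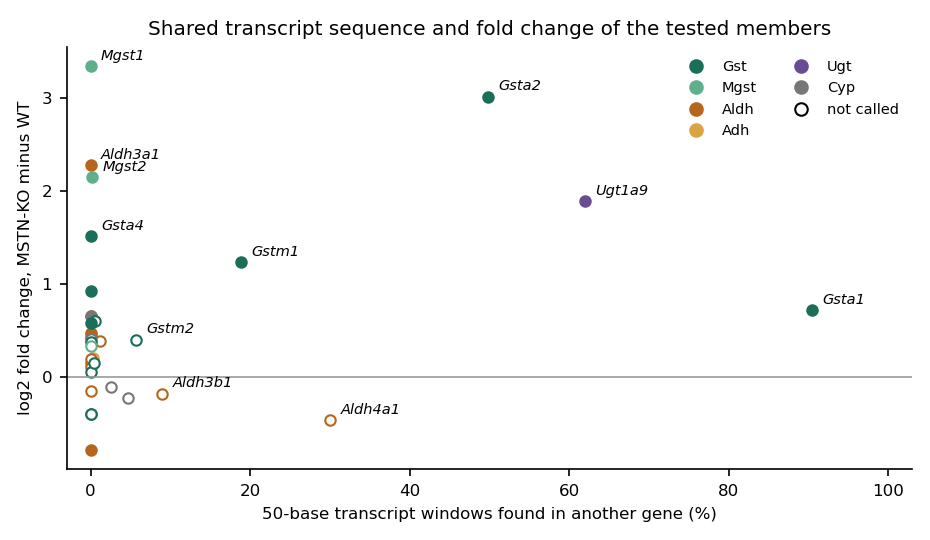
Percent of 50-base transcript windows shared exactly with another annotated gene (horizontal axis) against the log2 fold change (MSTN-KO minus WT, vertical axis) for the 36 tested members, with colours for the families and open points for members not called. Mgst1, Mgst2 and Aldh3a1, with large fold changes, lie at or near 0%, whereas Gsta1, Ugt1a9 and Gsta2 lie at 90.5%, 62.03% and 49.8%.

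The 3 motifs were counted on both strands in the 250 bases before all 32851 start sites of the RefSeq promoter table. Of the 61 members 49 had an entry, with 61 start sites in all. TGACNNNGC was found in 10.2% of all windows and 6.56% of the member windows. It occurred in 4 members, Mgst1, Gstm5, Gstm7 and Aldh9a1. Of the 11 members called higher that had an entry, 1 (Mgst1) held it. GCGTG was found in 28.2% of all windows and 24.6% of the member windows. It occurred in 14 members, and in 3 (Gsta2, Gstm1 and Aldh18a1) of the 11 members called higher that had an entry. TGANTCA was found in 6.75% of all windows and 6.56% of the member windows. It occurred in 4 members, and in 1 (Mgst2) of the same 11 members called higher. In Gstm5 a match to TGACNNNGC overlaps a match to GCGTG. A match describes letters in this window only.

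Genes around these families were taken from lists that were chosen with earlier results of these data known. In glutathione supply and use, 3 of 23 tested genes were higher and 1 was lower, against 8.78% and 8.96% of all tested genes. Glrx, which reduces glutathionylated proteins, was at 25.8 ± 2.54 FPKM in WT and 49.4 ± 3.56 FPKM in MSTN-KO (mean ± SD, n = 3, adjusted p = 3.90e-04). Gpx4, the lipid peroxide reductase, was at 965 ± 131 FPKM in WT and 1353 ± 129.6 FPKM in MSTN-KO (mean ± SD, n = 3, adjusted p = 0.0326), and the conjugate exporter Abcc1 was at 18.04 ± 1.89 FPKM in WT and 24.7 ± 0.945 FPKM in MSTN-KO (mean ± SD, n = 3, adjusted p = 0.0347). Abcc5, another exporter, was lower, at 17.3 ± 1.62 FPKM in WT and 9.097 ± 0.866 FPKM in MSTN-KO (mean ± SD, n = 3, adjusted p = 0.0012). The enzymes that make and recycle glutathione, Gclc, Gclm, Gss and Gsr, were not called, with log2 fold changes from 0.05 to 0.29. The number called higher in this list was 1 without WT replicate 2, WT replicate 3, MSTN-KO replicate 1 or MSTN-KO replicate 3, and 6 without MSTN-KO replicate 2. In the same order, 419, 600, 488, 588 and 1175 of all 10837 tested genes were called higher, against 952 with all libraries.

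Among 12 tested regulators of detoxification genes, 1 was called higher and 1 lower, against 8.78% and 8.96% of all tested genes. Rxra, the partner of several nuclear receptors, was higher, at 9.16 ± 1.81 FPKM in WT and 18.5 ± 1.15 FPKM in MSTN-KO (mean ± SD, n = 3, adjusted p = 0.0012). Bach1, a repressor at antioxidant response elements, was lower, at 8.09, 7.103 and 5.98 FPKM in WT and 3.32, 5.73 and 2.67 FPKM in MSTN-KO (adjusted p = 0.0256), and its call was lost without WT replicate 1, WT replicate 2, MSTN-KO replicate 1 or MSTN-KO replicate 3. Nfe2l2, which encodes NRF2, was at 33.4 ± 1.37 FPKM in WT and 32.4 ± 2.74 FPKM in MSTN-KO (mean ± SD, n = 3), its inhibitor Keap1 at 20.1 ± 1.56 FPKM in WT and 24.8 ± 1.34 FPKM in MSTN-KO (mean ± SD, n = 3), and Ahr at 1.34 ± 0.179 FPKM in WT and 2.34 ± 0.601 FPKM in MSTN-KO (mean ± SD, n = 3). None of these 3 was called (adjusted p = 0.831, 0.126 and 0.0684).

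Of 17 tested enzymes and iron-storage genes known as other targets of NRF2 or AHR, 6 were called higher, against 8.78% of all tested genes. The ferritin chains Fth1 and Ftl1 were 2.19-fold and 1.98-fold higher in the mean (adjusted p = 6.99e-04 and 0.0022). Hmox1, which degrades haem, was at 49.3, 55.9 and 51.6 FPKM in WT and 114, 69.5 and 101 FPKM in MSTN-KO, with MSTN-KO replicate 2 the lowest of its group but above WT (adjusted p = 0.0048). Ephx1, an epoxide hydrolase, G6pdx, which supplies NADPH, and the aldo-keto reductase Akr1b10 were 1.71-fold, 1.49-fold and 1.43-fold higher (adjusted p = 0.0096, 0.0097 and 0.0381). Nqo1, the quinone reductase most often used as an NRF2 target, was at 45.9, 46.3 and 51.6 FPKM in WT and 56.9, 34.2 and 57.03 FPKM in MSTN-KO and was not called (adjusted p = 0.984). Txnrd1 and Srxn1 were not called either, with log2 fold changes of 0.07 and 0.12.

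The retinoid list, which borders on the Aldh, Adh and Cyp26 genes, had 3 higher and 1 lower among 9 tested. The shares over all tested genes were 8.78% and 8.96%. Rdh10, which makes retinal from retinol, was at 6.54 ± 0.259 FPKM in WT and 15.1 ± 0.718 FPKM in MSTN-KO (mean ± SD, n = 3, adjusted p = 1.11e-04), and Dhrs3, which reverses that step, at 1.37, 1.06 and 3.01 FPKM in WT and 7.63, 12.3 and 9.24 FPKM in MSTN-KO (adjusted p = 1.09e-04). The retinoic acid receptor Rarg was at 58.2 ± 7.43 FPKM in WT and 86.1 ± 4.19 FPKM in MSTN-KO (mean ± SD, n = 3, adjusted p = 0.0094). Crabp2, which carries retinoic acid to its receptors, was lower without overlap, at 29.03, 29.98 and 29.3 FPKM in WT and 7.57, 6.199 and 5.29 FPKM in MSTN-KO (log2 fold change -2.06, adjusted p = 9.75e-07). All adjusted p-values of these lists are from the limma fit over all 10837 genes.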

How the data were processed

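RNA-seq of C2C12 cells (3 WT and 3 MSTN-KO libraries) was grouped by the labels' genotype. The authors aligned the reads, computed FPKM per gene and library without pooling replicates, and deposited 1 table per library for the same 14548 genes. The submitters' processing notes name Bowtie 0.12.2 and the build mm8, without a role. FPKM divides fragments by transcript length and library size, so abundant genes lower all other values. The files hold no positions. Symbols and positions came from GENCODE M21 (GRCm38), which matched 14445 identifiers, and promoter sequences from RefSeq (GRCm38.p6).

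Values were taken as log2(FPKM + 1), which understates changes of low genes. The 10837 genes that reached 1 FPKM in any library entered a limma model (version 3.58.1, R 4.3.3) of group with the eBayes trend option, and were called at a Benjamini-Hochberg adjusted p under 0.05 over all of them. Sums and ratios were compared by two-sided exact permutation tests (Python 3.11.15, scipy 1.17.1). Genes named were members that reached 1 FPKM, with values per library for each called member and the most abundant member of each family, members under 1 FPKM as examples, called genes of the pathway lists, and uncalled genes and markers chosen after their values were seen. The members and lists were chosen with earlier results of these data known. On simulated data of 10837 genes the fit recovered 80% of changes of 1 and 99% of changes of 2 on the log2 scale, and 10 unchanged genes were called.

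The alternatives were a pseudocount of 0.1, other filters, no trend, quantile normalization, scaling by percentile 75 or to a sum of 1000000, a smooth correction for length and GC content (mgcv 1.9.3), a replicate block with and without that correction, the study's criteria (unadjusted p under 0.05, log2 fold change beyond 1 or -1), and leaving out each library.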

Additional observations from a re-analysis of the deposited data

How the results depend on the processing

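Of the 16 called members, 10 kept their call and direction under all 16 refits, which do not include the study's criteria, and none of the 16 reversed. The 10 were Mgst1, Mgst2, Gsta2, Gsta4, Gstm1, Gstt1, Aldh2, Aldh3a1, Aldh5a1 and Ugt1a9. Of these, Aldh2 (log2 fold change 0.66), Gstt1 (0.93) and Aldh5a1 (-0.78) did not reach the fold change cutoff of the study's criteria on the log2(FPKM + 1) scale. Without the added 1, the ratio of mean FPKM in MSTN-KO to WT was 2.25 for Gstt1 and 0.489 for Aldh5a1, both past the cutoff. For Aldh2 it was 1.58. The study applied its criteria with iDEP, and its own counts of called genes differ from those given here. The number called higher was 9 after scaling to a sum of 1000000, 7 under the study's criteria, and between 10 and 15 when 1 library was left out, against 15. Of all 10837 genes, 350, 131 and between 419 and 1175 were then called higher, against 952. The number called lower was 2 without the filter, after percentile 75 scaling, and after the length and GC correction with or without the replicate block, 5 after scaling to a sum of 1000000 and 0 under the study's criteria, against 1. Without the filter 906 of 14548 genes were called lower. Of all 10837 genes, 1092 were called lower after percentile 75 scaling, and 1103 and 1302 after the correction with and without the block. The counts were 2367 after scaling to a sum of 1000000 and 249 under the study's criteria, against 971. Of the 20 tested members that were not called, 8 were called under some alternative, among them Adh7, Aldh4a1, Cyp1b1 and Gsto1. Among these 20, scaling to a sum of 1000000 reversed Adh5 (-0.071), Aldh6a1 (-0.028), Aldh7a1 (-0.14), Aldh9a1 (-0.081) and Gstm5 (-0.23), on the log2 scale. Gstm5 was also reversed by the length and GC correction (-0.022, the same with the replicate block), Aldh7a1 without WT replicate 2 (-0.011, with 0.32 as the highest value when 1 library was left out) and Cyp2u1 by quantile normalization (0.058). The log2 ratio of the Adh sum became -0.047 after scaling to a sum of 1000000, and that of the Cyp sum -0.23 and, with percentile 75 scaling, -0.0018. That scaling raises the values of the MSTN-KO libraries, whose sums were larger, less than those of WT, and the cause of the other changes was not tested. Libraries of the same replicate number deviated from their group means with correlations of -0.015, -0.13 and -0.14 across genes. Deviations from means of 3 libraries constrain one another, so these values neither show nor exclude a pairing by number. The fit with the replicate block called 15 members higher and 1 lower, and 939 and 1001 of all 10837 genes. The unknown number of fragments limits what can be said of the members under 1 FPKM.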
